A study of Mus musculus with 18 samples.

Results

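The 39 mouse genes described here act in DNA replication and in mitosis. They were chosen by symbol and fall into 15 replication genes, which act in S phase or at entry into it, and 24 mitosis genes, which act mainly in G2 phase and in cell division. Some, among them Ccna2, are not confined to the phase of their class. All 39 had a value in each of the 18 libraries, out of 25696 gene symbols listed in the tables of tissue or of cultures.

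Polyadenylated RNA was sequenced from iWAT, the inguinal white fat under the skin of the groin, and from cultured adipocytes grown out of its stromal-vascular cells. Tissue and cultures came from wild-type (WT) mice and from NFIA-Tg mice, which carry a transgene for the transcription factor NFIA, and the series title asks how NFIA in fat cells acts on mitochondrial and inflammatory genes. There were 6 groups of 3 libraries: WT iWAT, NFIA-Tg iWAT, and for each genotype cultures at day 0 and at day 7 of differentiation. The sources used here give neither the promoter of the transgene, nor the age of the mice, nor whether replicates were separate animals or cultures, so the p-values speak only for the spread among these libraries, which may be technical. All cultures were grown in DMEM with serum and antibiotics. At confluence the cells received isobutylmethylxanthine, indomethacin, dexamethasone, insulin, T3 and rosiglitazone for 48 hours and then insulin, T3 and rosiglitazone, in both genotypes alike, and day 0 cultures were sampled before this treatment.

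In the cell cycle, DNA is copied in S phase and the copies are parted in mitosis. Genes for replication are switched on as cells pass from G1 into S phase, largely through E2F transcription factors once cyclin-dependent kinases have inactivated the retinoblastoma protein. Genes for mitosis are switched on later, in G2, through complexes that contain MuvB proteins, B-Myb and FOXM1, which reach DNA at a promoter element called the cell cycle genes homology region. In fat, precursor cells can divide, also for some rounds after the adipogenic mix is added to a culture, whereas mature adipocytes have left the cycle.

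The transgene was checked first. Nfia stood at 3.73 to 4.19 FPKM (fragments mapped per kilobase of a gene's transcript, relative to the library, so a level per length) in WT iWAT and at 99.6 to 166 FPKM in NFIA-Tg iWAT. At day 0 it was 6.3 to 6.51 FPKM in WT and 11.3 to 12.5 FPKM in NFIA-Tg cultures. At day 7 the 3 libraries labelled NFIA-Tg went against their label, with 6.44 to 7.32 FPKM against 12 to 13 FPKM in WT. Every direction given below for day 7 is therefore that of the labels, as "libraries labelled NFIA-Tg". The cultures held 16772594 to 28625625 recovered reads a library. Each value of the 39 genes there rested on 61 reads (Gins1 in NFIA-Tg day 0 replicate 1) to 16192 reads. The depth of the iWAT libraries is unknown. Marker genes of adipocytes summed to 12 to 41.4 FPKM at day 0 and to 24170 to 28970 FPKM at day 7.

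The promoters of the 2 classes carried different short motifs. Windows from 250 bases before to 50 after the transcription start were taken from RefSeq (mouse build GRCm38.p6, a later build than the mm9 named for the deposited files). A window was found for 31 of the 39 genes, 12 of replication with 13 windows and 19 of mitosis with 20, and none was used for Gins1, Ccne2, Mcm4, Kif20a, Aurkb, Ccna2, Foxm1 and Tpx2. Both strands were searched for the core of the cell cycle genes homology region (TTTGAA or TTCGAA, the latter its own reverse complement and counted once), for E2F sites (TTTGGCGC, TTTCCCGC, TTTGCCGC or TTTCGCGC) and for the box CCAAT. The homology region was in 80% of mitosis windows (16 of 20), in 15.4% of replication windows (2 of 13, those of Mcm2 and Mcm7) and in 19.2% of all 32851 windows of the genome. An E2F site was in 30.8% of replication windows (4 of 13, of Mcm3, Mcm5, Mcm6 and Mcm7), in 5% of mitosis windows (1 of 20, that of Cdk1) and in 2.26% of all windows. CCAAT was in 90% of mitosis, 69.2% of replication and 37.4% of all windows. The following are shown because they hold the patterns of each class, from 160 bases before to 20 after the start, 5′ to 3′ along the gene, with the motifs in capitals.
Ccnb2: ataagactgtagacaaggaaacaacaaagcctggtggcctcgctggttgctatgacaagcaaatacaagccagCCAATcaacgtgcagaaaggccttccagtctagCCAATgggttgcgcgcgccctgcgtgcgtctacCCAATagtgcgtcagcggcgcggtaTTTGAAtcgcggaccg
Cdk1: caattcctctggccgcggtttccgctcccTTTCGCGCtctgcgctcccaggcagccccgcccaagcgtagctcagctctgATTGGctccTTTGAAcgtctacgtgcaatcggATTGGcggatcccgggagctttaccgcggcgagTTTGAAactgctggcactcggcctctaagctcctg
Top2a: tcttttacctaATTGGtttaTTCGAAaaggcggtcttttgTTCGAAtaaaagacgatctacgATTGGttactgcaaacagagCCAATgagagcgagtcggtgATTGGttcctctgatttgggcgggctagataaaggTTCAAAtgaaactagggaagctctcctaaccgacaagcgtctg
Mcm5: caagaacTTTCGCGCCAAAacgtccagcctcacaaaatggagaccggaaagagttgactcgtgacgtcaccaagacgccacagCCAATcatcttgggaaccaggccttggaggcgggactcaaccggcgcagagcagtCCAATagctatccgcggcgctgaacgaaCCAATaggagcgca
Mcm6: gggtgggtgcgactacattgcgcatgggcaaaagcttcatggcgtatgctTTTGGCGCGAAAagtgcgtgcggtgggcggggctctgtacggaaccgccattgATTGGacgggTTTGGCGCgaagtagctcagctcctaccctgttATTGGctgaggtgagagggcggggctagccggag
Rrm2: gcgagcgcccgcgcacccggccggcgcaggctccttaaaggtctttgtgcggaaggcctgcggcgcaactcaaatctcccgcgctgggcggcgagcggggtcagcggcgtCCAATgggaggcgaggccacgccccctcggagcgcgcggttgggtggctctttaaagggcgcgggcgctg
They lie at chr9:70421535-70421714 (Ccnb2, minus strand), chr10:69352893-69353072 (Cdk1, minus), chr11:99024170-99024349 (Top2a, minus), chr8:75109349-75109528 (Mcm5, plus), chr1:128359686-128359865 (Mcm6, minus) and chr12:24708094-24708273 (Rrm2, plus). Ccnb2, a cyclin that activates the mitotic kinase, showed 3 CCAAT boxes spaced 33 and 33 bases apart, with TTTGAA starting at base 5 after the start. Top2a, the enzyme that untangles sister chromatids, had 6 CCAAT and 4 homology region matches in its window. In Mcm5 and Mcm6, 2 subunits of the replicative helicase, 2 E2F matches on opposite strands overlapped in 1 run. Rrm2 is shown because its level departed from its class in the cultures, and its window held 1 CCAAT and neither other motif. The windows of Ccne1, E2f1, Pcna, Rrm1, Tk1 and Tyms also held neither of those, so this was not particular to Rrm2. A match describes letters, not a bound site, and no match says only that these letters are not in the window.

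**Figure D1:**
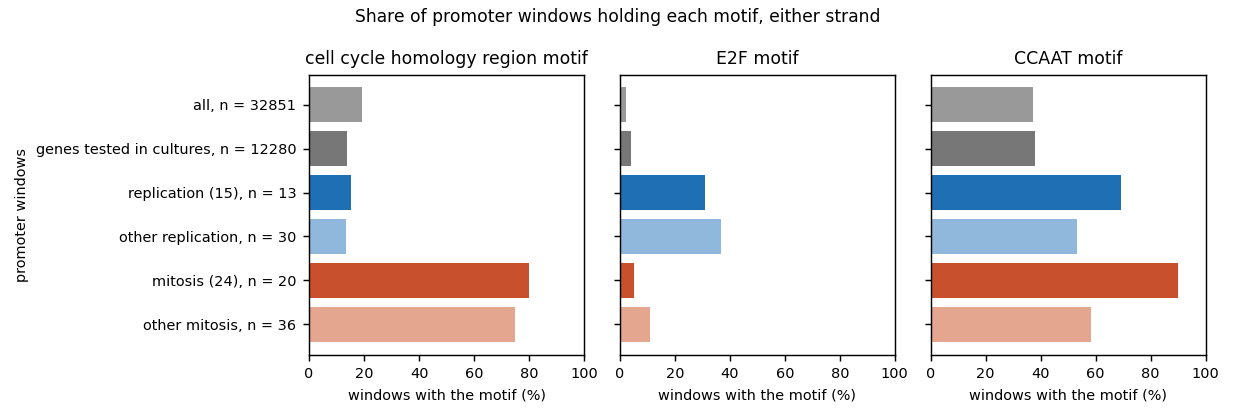
Share of promoter windows (%, horizontal axis) that hold each of 3 motifs on either strand, for all windows, genes tested in the cultures, both classes and 2 wider lists. The homology region reached 80% of mitosis and 15.4% of replication windows, and E2F sites 5% and 30.8%.

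The wider lists of other replication and mitosis genes showed a like division. The homology region was in 75% of the windows of other mitosis genes (27 of 36) and in 13.3% of those of other replication genes (4 of 30). E2F sites were in 11.1% and 36.7% of the same windows.

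Summed over their members, both classes were lower in every group labelled NFIA-Tg than in its WT group, and the mitosis genes stood further below WT than the replication genes. The 15 replication genes summed to 569 ± 3.86 FPKM in WT day 0 cultures (mean ± SD, n = 3, here and below) and to 336 ± 5.16 FPKM in NFIA-Tg day 0 cultures, 59.1% of WT. The 24 mitosis genes summed to 550 ± 6.11 FPKM in WT and to 200 ± 7.56 FPKM in NFIA-Tg at day 0, 36.4% of WT. No library of one genotype reached the range of the other in either sum. At day 7 the replication sum was 1247 ± 23.3 FPKM in WT and 750 ± 31.3 FPKM in libraries labelled NFIA-Tg, 60.1% of WT. The mitosis sum was 934 ± 18.9 FPKM in WT and 318 ± 11.1 FPKM in libraries labelled NFIA-Tg at day 7, 34% of WT. The percentages at day 7 thus lay close to those at day 0. Nfia itself stood on opposite sides of WT at these times, and its part in these levels was not tested. In iWAT the replication sum was 88.8 ± 7.12 FPKM in WT and 78.5 ± 2.52 FPKM in NFIA-Tg, 88.3% of WT, with WT replicate 3 (80.6 FPKM) below NFIA-Tg replicate 2 (81 FPKM). The mitosis sum was 42.2 ± 7.13 FPKM in WT iWAT and 20.9 ± 2.58 FPKM in NFIA-Tg iWAT, 49.4% of WT, and these ranges did not meet.

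The ratio of the replication sum to the mitosis sum gave the same order in all 3 settings. It was 2.48, 1.86 and 2.06 in WT iWAT and 4.2, 3.42 and 3.76 in NFIA-Tg iWAT. At day 0 it was 1.03, 1.02 and 1.04 in WT and 1.66, 1.73 and 1.65 in NFIA-Tg. At day 7 it was 1.35, 1.33 and 1.33 in WT and 2.41, 2.29 and 2.37 in libraries labelled NFIA-Tg. Within each setting every library labelled NFIA-Tg lay above every WT library. Pcna, the sliding clamp that holds DNA polymerase on its template, was the most abundant of the 39 genes in every group, at 32.8 to 266 FPKM on average, and made up 38.6% and 41.8% of the replication sum in WT and NFIA-Tg iWAT but only 19.5% to 22.3% in the 4 culture groups. Tissue and culture tables were normalized separately, so a level in one is set beside the other only as printed. In bulk RNA, fewer cycling cells and less of these RNAs per cell cannot be told apart.

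**Figure D2:**
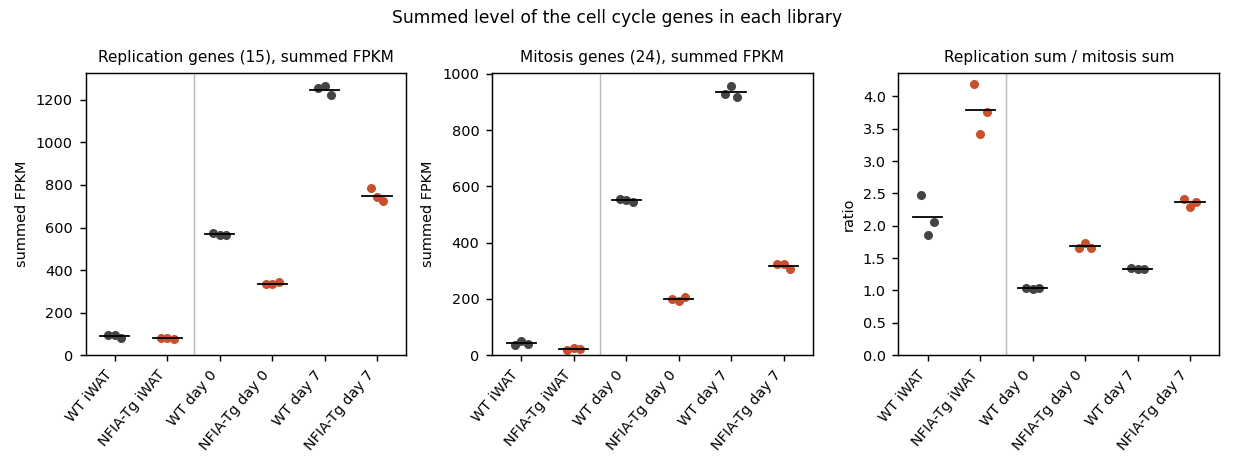
Summed FPKM of the 15 replication genes, of the 24 mitosis genes, and their ratio, in each of the 18 libraries (points) with group means (lines), WT in grey and NFIA-Tg in red. The ratio is higher in every library labelled NFIA-Tg (3.42 to 4.2 in iWAT, 1.65 to 1.73 at day 0, 2.29 to 2.41 at day 7) than in its WT group.

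At day 0, before the adipogenic mix, all 24 mitosis genes fell in NFIA-Tg cultures and the replication genes fell less evenly. A gene is said to have risen or fallen where its adjusted p from limma, on log2(FPKM + 1) and over all genes tested, was under 0.05. On this scale changes of low genes come out too small. Of the 15 replication genes 13 fell and 1 rose, with a median log2 change of -0.94. Of all 12553 genes tested 34.9% fell and 28.1% rose, with a median of -0.03. The median of the mitosis genes was -1.40, with a range of -1.69 (Ccnb2) to -0.95 (Cdc20), and 23 of them fell by at least 1 on the log2 scale, as 2.53% of all genes did. Of the replication genes 6 fell by that much.

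The helicase genes, whose products form the ring that opens DNA ahead of the polymerases, changed by -0.55 (Mcm4) to -1.39 (Mcm5) on the log2 scale at day 0. Mcm5 was 27.1, 25.7 and 25.1 FPKM in WT, against 8.97, 9.3 and 9.64 FPKM in NFIA-Tg (log2 change -1.39 ± 0.05 (SE), adjusted p = 8.58e-10). Mcm2 was 48.9, 47.5 and 46.9 FPKM in WT, against 21.1, 21.1 and 21.7 FPKM in NFIA-Tg (log2 change -1.13 ± 0.04, adjusted p = 2.77e-10). In both genes the NFIA-Tg libraries lay far below the WT libraries, with no overlap. Gins1, part of the complex that joins the helicase to the replication fork, changed by -0.98. Pcna was 124, 127 and 129 FPKM in WT, against 66.8, 63.5 and 66.4 FPKM in NFIA-Tg (log2 change -0.94 ± 0.05, adjusted p = 4.82e-09). The genes for cyclin E, which drives entry into S phase, changed by -0.53 (Ccne1) and -1.11 (Ccne2), and E2f1, a transcription factor for S phase genes, by -0.68.

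The genes that supply the building blocks of DNA parted at day 0. Tk1, thymidine kinase, fell with a log2 change of -1.28 and Tyms, thymidylate synthase, with one of -0.76. The 2 subunits of ribonucleotide reductase, which makes deoxyribonucleotides, did not fall. Rrm1, the large subunit, rose from 52.5, 51.6 and 52.1 FPKM in WT to 54.7, 58.4 and 59.7 FPKM in NFIA-Tg (log2 change 0.14 ± 0.04, adjusted p = 0.00604). Rrm2, the small subunit, was 35.2, 33.6 and 33.3 FPKM in WT, against 33.1, 34.4 and 35.2 FPKM in NFIA-Tg (log2 change 0.01 ± 0.04, adjusted p = 0.873). The Rrm1 libraries did not overlap between genotypes, while those of Rrm2 did, and its 95% confidence interval ran from -0.08 to 0.1. With that, Rrm1 and Rrm2 were the only 2 of the 39 genes that did not fall at day 0.

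Among mitosis genes at day 0, Ccnb2 showed the largest change, at 29.6, 29.5 and 27.9 FPKM in WT, against 8.28, 8.14 and 8.55 FPKM in NFIA-Tg (log2 change -1.69 ± 0.05, adjusted p = 1.37e-10). Top2a, the most abundant mitosis gene in WT cultures, was 52.9, 54 and 54.4 FPKM in WT, against 18.2, 17.3 and 18.7 FPKM in NFIA-Tg (log2 change -1.52 ± 0.04, adjusted p = 2.82e-11). Both had the NFIA-Tg libraries at well under the lowest WT library. The cyclin-dependent kinase Cdk1 changed by -1.12, its partners Ccna2 and Ccnb1 by -1.5 and -1.48, and the mitotic transcription factor Foxm1 by -1.26. The spindle kinases Aurka, Aurkb and Plk1 changed by -1.20, -1.53 and -1.25. Genes of the spindle checkpoint, which holds cells until all chromosomes are attached, changed by -1.38 (Bub1) and -1.44 (Bub1b), and the kinesin motors by -1.57 (Kif11), -1.56 (Kif23) and -1.11 (Kif20a). Mki67, the gene of the proliferation marker Ki-67, was 26.7, 27 and 27.4 FPKM in WT, against 8.36, 7.55 and 8.65 FPKM in NFIA-Tg (log2 change -1.61 ± 0.08, adjusted p = 3.57e-09). The smallest change of the class, in Cdc20, an activator of the anaphase-promoting complex, ran from 32.2, 30.4 and 29.1 FPKM to 16, 14.6 and 15.4 FPKM, again without overlap.

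**Figure D3:**
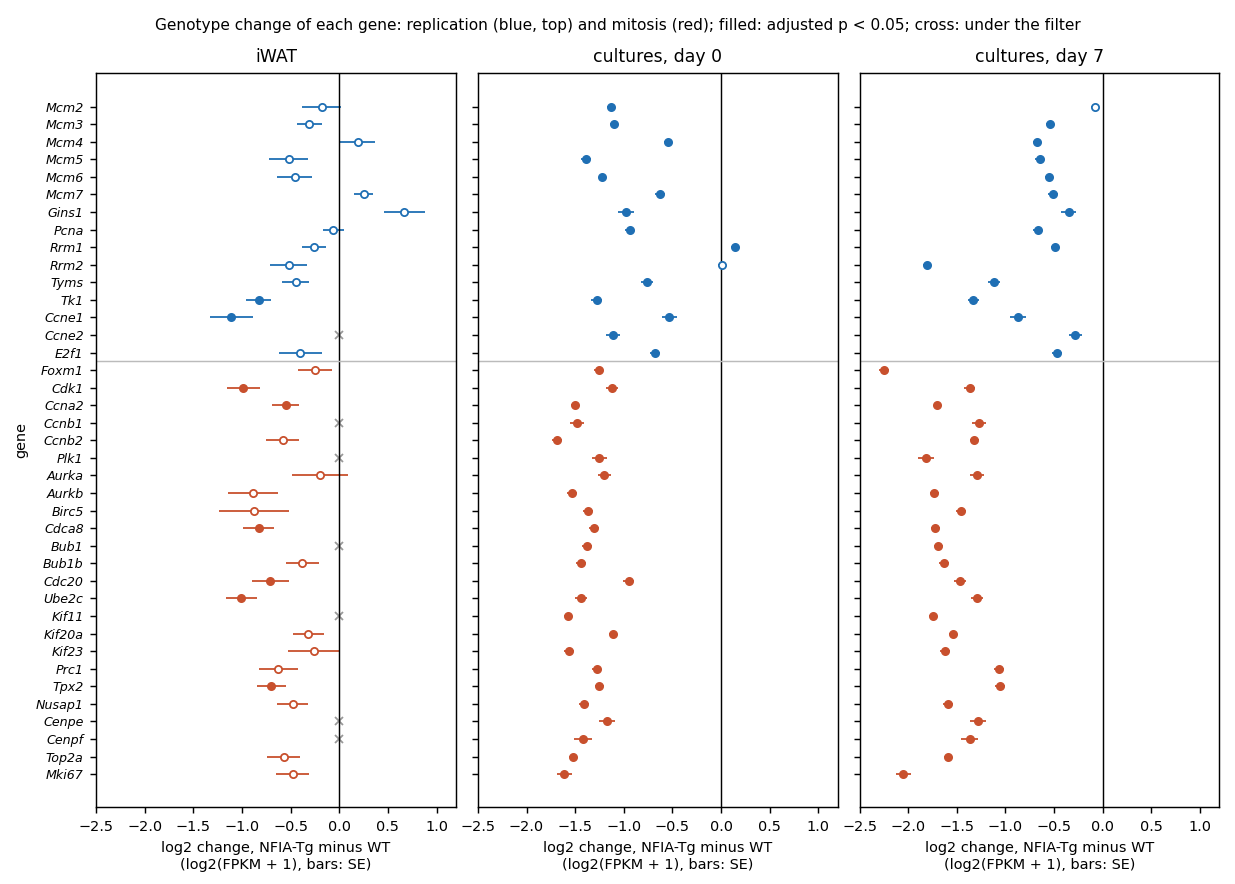
Log2 change of each gene, NFIA-Tg minus WT, on the log2(FPKM + 1) scale (horizontal axis, bars SE), in iWAT, at day 0 and at day 7; filled points had an adjusted p under 0.05 and crosses mark genes under the filter. At day 0 and day 7 all 24 mitosis genes lie below 0, while Rrm1 and Rrm2 lie at 0.14 and 0.01 at day 0 and Mcm2 at -0.08 at day 7.

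Genes listed as brakes on the cell cycle and genes of G1 moved in both directions at day 0. The brakes include the MuvB genes Lin9, Lin37, Lin52 and Lin54, whose proteins are also in the complexes that switch on mitosis genes. Of the 20 genes listed as brakes 8 rose and 7 fell, with a median log2 change of 0.11, while of all genes tested 28.1% rose and 34.9% fell. Cdkn1a, the gene of the kinase inhibitor p21, rose from 221, 230 and 215 FPKM in WT to 416, 454 and 424 FPKM in NFIA-Tg (log2 change 0.96 ± 0.06, adjusted p = 5.36e-08). The inhibitor genes Cdkn2b and Cdkn2a rose with log2 changes of 0.76 and 0.68, and Cdkn2c fell with one of -0.56. Of the 14 genes of G1 and S phase entry 10 fell and 2 rose, with a median of -0.45. The 2 that rose were D-type cyclins, which start the passage through G1. Ccnd1 was 15, 18.9 and 15.9 FPKM in WT, against 40.6, 41.1 and 41.3 FPKM in NFIA-Tg (log2 change 1.26 ± 0.12, adjusted p = 1.8e-06), and Ccnd2 changed by 0.58. The E2F family members E2f7 and E2f8, repressors that are themselves made in S phase, fell with log2 changes of -1.08 and -1.10. Of the wider lists, 33 of 34 other replication genes and 37 of 38 other mitosis genes fell, with medians of -0.92 and -1.12, with Chaf1b at -1.47 in the first list and Anln at -1.37 and Nek2 at -1.30 in the second.

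Cell type markers also differed at day 0. The 8 progenitor and fibroblast markers summed to 1655 to 1991 FPKM in WT and to 2597 to 3154 FPKM in NFIA-Tg, but not all of them stood higher. Ly6a, at 1077 to 1398 FPKM in WT and 1937 to 2492 FPKM in NFIA-Tg, made up most of the sum. With Thy1 and Dlk1 it was higher in every NFIA-Tg library, whereas Pdgfrb (106 to 109 FPKM and 90.3 to 95 FPKM) and Dpp4 were lower in every one, and Cd34, Dcn and Pdgfra overlapped. The 4 smooth muscle markers summed to 564 to 729 FPKM and 402 to 510 FPKM, 2 of them lower without overlap. The 8 adipocyte markers summed to 12 to 14.2 FPKM in WT and to 30.6 to 41.4 FPKM in NFIA-Tg. The sums of all 7 macrophage and all 7 endothelial markers stayed under 10 FPKM in every culture library, and lymphocyte, epithelial and erythroid markers summed to at most 0.269 FPKM there, with Ms4a1 listed at 0 in all 12. The part of these shifts in the result was not tested.

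At day 7, 38 of the 39 genes fell in libraries labelled NFIA-Tg, and here the 2 classes lay further apart. All 24 mitosis genes fell, with a median log2 change of -1.56 and a range of -2.25 (Foxm1) to -1.06 (Tpx2). Of the 15 replication genes 14 fell, with a median of -0.55 and a range of -1.81 (Rrm2) to -0.08 (Mcm2). Of all genes 51.1% fell and 29.8% rose, with a median of -0.17. A fall of at least 1 on the log2 scale was seen in 24 of 24 mitosis genes, in 3 of 15 replication genes and in 10.8% of all genes. Under median-of-ratios scaling and quantile normalization, which moved the median of all genes to -0.06 and -0.03, the mitosis median was -1.43 and -1.39 and the replication median -0.42 and -0.56, so the direction of both classes held.

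Mcm2 was the replication gene with the smallest change at day 7. It stood at 76.7, 77 and 74.6 FPKM in WT, against 76, 70 and 70.5 FPKM in libraries labelled NFIA-Tg, a log2 change of -0.08 ± 0.04 (adjusted p = 0.0819). Its groups overlapped, its 95% interval ran from -0.16 to 0.01, and its sign turned to 0.06 under median-of-ratios scaling (adjusted p = 0.167). It was called lower with TPM (values scaled to a common total), at -0.15 (adjusted p = 0.00177), after quantile normalization, at -0.10 (adjusted p = 0.0213), and without NFIA-Tg day 7 replicate 1, at -0.11 (adjusted p = 0.00987). With TPM and after quantile normalization all 15 replication genes were thus called lower. The other 5 helicase genes fell with log2 changes of -0.51 (Mcm7) to -0.68 (Mcm4), Gins1 with -0.35 and Ccne2 with -0.28, the last not past the threshold under median-of-ratios scaling (adjusted p = 0.0767). Pcna was 274, 269 and 254 FPKM in WT, against 176, 160 and 162 FPKM in libraries labelled NFIA-Tg, a log2 change of -0.67 ± 0.05 (adjusted p = 2.72e-08). Ccne1 and E2f1 fell with -0.87 and -0.47.

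The 3 replication genes with the largest changes at day 7 all serve the supply of deoxyribonucleotides. Rrm2 was 149, 157 and 150 FPKM in WT, against 43.5, 44.1 and 41 FPKM in libraries labelled NFIA-Tg, a log2 change of -1.81 ± 0.04 (adjusted p = 2.55e-12). Tk1 was 114, 120 and 109 FPKM in WT, against 46.7, 47.2 and 40.7 FPKM in libraries labelled NFIA-Tg, a log2 change of -1.33 ± 0.06 (adjusted p = 3.88e-10). In both, the highest library labelled NFIA-Tg lay below the lowest WT library by more than the range within either group. Tyms changed by -1.12, whereas Rrm1, the partner subunit of Rrm2, changed by -0.49.

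Foxm1 led the mitosis genes at day 7, at 24.4, 24.4 and 23.9 FPKM in WT, against 4.61, 4.5 and 3.87 FPKM in libraries labelled NFIA-Tg, a log2 change of -2.25 ± 0.05 (adjusted p = 2.97e-12). Mki67 was 64, 65.4 and 61.5 FPKM in WT, against 12.5, 15.6 and 16 FPKM in libraries labelled NFIA-Tg, a log2 change of -2.05 ± 0.08 (adjusted p = 1.01e-10). Top2a was 86.8, 89.8 and 86.1 FPKM in WT, against 27.8, 29.2 and 28.5 FPKM in libraries labelled NFIA-Tg, a log2 change of -1.59 ± 0.04 (adjusted p = 3.24e-12). No mitosis gene had overlapping groups at day 7, where 51.4% of all genes were lower without overlap. The kinases Plk1, Aurkb, Cdk1 and Aurka changed by -1.82, -1.73, -1.37 and -1.29, and the cyclins Ccna2, Ccnb2 and Ccnb1 by -1.70, -1.32 and -1.27. The smallest changes belonged to 2 spindle assembly genes, Tpx2 (-1.06) and Prc1 (-1.07). Birc5 and Cdca8, which form the chromosomal passenger complex with Aurkb, changed by -1.46 and -1.72, Cdc20 and Ube2c, which act in the destruction of mitotic proteins, by -1.47 and -1.29, and the kinetochore genes Cenpe and Cenpf by -1.28 and -1.37.

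**Figure D4:**
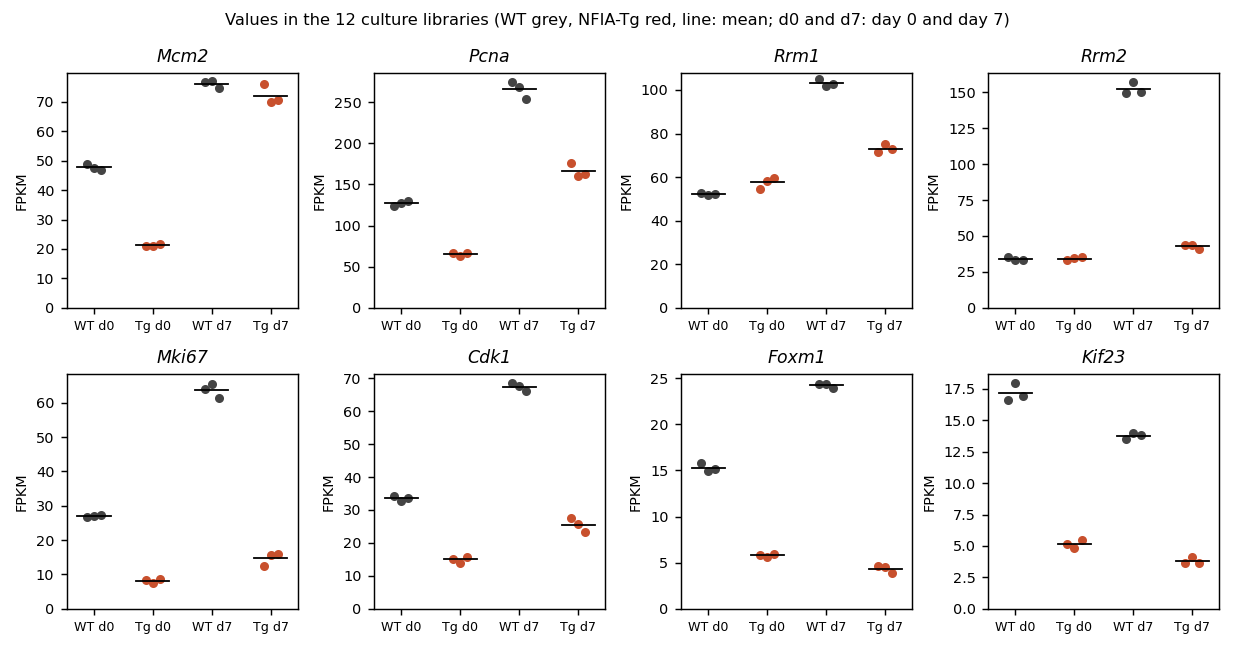
FPKM (vertical axis, from 0) of 8 genes in the 12 culture libraries, WT in grey and NFIA-Tg in red, with group means as lines. Mcm2 reaches 70 to 77 FPKM in all 6 day 7 libraries, Rrm2 is high in WT day 7 (149 to 157 FPKM) and 33.1 to 44.1 FPKM in the 3 other groups, and Kif23 is lower at day 7 than at day 0 in both genotypes.

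Of the 20 brakes 5 rose at day 7 and 12 fell, with a median log2 change of -0.34, where 29.8% of all genes rose and 51.1% fell. Under median-of-ratios scaling 8 brakes rose and 11 fell, and after quantile normalization 7 rose and 10 fell. Cdkn1a was 219, 209 and 197 FPKM in WT, against 235, 238 and 207 FPKM in libraries labelled NFIA-Tg, a log2 change of 0.12 ± 0.06 (adjusted p = 0.0845), and its change at day 7 differed from that at day 0 by -0.83 ± 0.09 (adjusted p = 2.55e-06). Cdkn1c, the gene of the inhibitor p57, was 26.6, 22.2 and 26.1 FPKM in WT, against 3.94, 4.61 and 3.68 FPKM in libraries labelled NFIA-Tg, a log2 change of -2.35 ± 0.10 (adjusted p = 2.57e-10). Gas1, a growth arrest gene, fell with a log2 change of -3.08, while Btg1, another antiproliferative gene, rose with 0.81 and the pocket protein gene Rb1 with 0.51. Of the 14 genes of G1 and entry 13 fell, with a median of -1.19. These included Ccnd1, at 8.32, 7.67 and 9.51 FPKM in WT, against 1.89, 2.91 and 1.76 FPKM in libraries labelled NFIA-Tg, a log2 change of -1.59 ± 0.12 (adjusted p = 7.54e-08), and E2f8 and E2f2, with -2.15 and -1.92. Of the wider lists, 33 of 34 other replication genes fell (median -0.58) and 37 of 38 other mitosis genes (median -1.33), led by Clspn (-1.35) and Pola1 (-1.31) and by Kif4 (-1.94) and Melk (-1.60). Pttg1, the gene of securin, rose from a mean of 17 to 33.1 FPKM (log2 change 0.92 ± 0.08, adjusted p = 2.91e-07). The 8 progenitor markers summed to 660 to 783 FPKM in WT and 180 to 245 FPKM in libraries labelled NFIA-Tg at day 7, and 7 of the 8 were lower in every library labelled NFIA-Tg. The sums of the 8 adipocyte markers overlapped, at 24170 to 28540 FPKM and 25390 to 28970 FPKM, but these sums were mostly Fabp4 (20250 to 24630 FPKM and 23600 to 26930 FPKM). Of the single adipocyte markers 3 were lower in every library labelled NFIA-Tg and 5 overlapped. The 3 were Adipoq, at 1275 to 1325 FPKM in WT against 240 to 276 FPKM, Cidec, at 1297 to 1381 FPKM against 702 to 817 FPKM, and Retn, at 376 to 469 FPKM against 142 to 190 FPKM. The 4 smooth muscle markers summed to 88.5 to 104 FPKM and 34.9 to 41 FPKM, with 3 of them lower in every library labelled NFIA-Tg. Myh11 was higher in every one, at 1.12 to 1.42 FPKM in WT against 2.55 to 2.82 FPKM. The part of all these markers in the result was not tested.

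From day 0 to day 7 of differentiation most genes of both classes rose. In WT cultures all 15 replication genes rose, with a median log2 change of 1.06, and 23 of 24 mitosis genes rose, with a median of 0.71. Of all genes 46.2% rose and 35.4% fell, with a median of 0.09 that moved to -0.06 with TPM, where the class medians were 0.89 and 0.55. The NFIA-Tg change sets day 7 libraries against day 0 libraries by their labels, and at day 7 Nfia went against those labels, so every NFIA-Tg value of differentiation here and below, and every difference between genotypes in it, rests on them. In NFIA-Tg cultures all 15 replication genes rose (median 1.33), 19 mitosis genes rose and 2 fell (median 0.61), against 45.7% of all genes that rose and 41.5% that fell, with a median of 0.05. With TPM, which moved that median to -0.18, 13 replication genes rose (median 1.08), 16 mitosis genes rose and 4 fell (median 0.40). These 2 comparisons have no libraries in common. The summed replication level was 2.19 times as high at day 7 as at day 0 in WT and 2.23 times in the libraries labelled NFIA-Tg, and the summed mitosis level 1.7 and 1.59 times.

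Ccne2 showed the steepest rise of the 39 genes in both genotypes. It went from 6.63, 5.9 and 6.65 FPKM to 30.6, 33 and 35.6 FPKM in WT (log2 change 2.20 ± 0.07, adjusted p = 1.81e-11) and from 2.5, 2.72 and 2.09 FPKM to 28, 26 and 26.8 FPKM in NFIA-Tg (log2 change 3.03 ± 0.07, adjusted p = 4.19e-13). Ccne1 rose with log2 changes of 2.11 in WT and 1.77 in NFIA-Tg, and Tk1 with 1.72 and 1.67. Among mitosis genes the largest rises were in Aurka (1.39 in WT, 1.30 in NFIA-Tg) and in Nusap1, which binds spindle microtubules (1.24 and 1.07), with Mki67 at 1.21 in WT and Ccnb1 at 1.27 in NFIA-Tg. Kif23, a motor needed for the final split of daughter cells, fell in both genotypes, with log2 changes of -0.30 (adjusted p = 0.000167) and -0.36 (adjusted p = 2.81e-05). It was 16.7, 18 and 16.9 FPKM at day 0 and 13.5, 14 and 13.8 FPKM at day 7 in WT, and 5.18, 4.84 and 5.45 FPKM and 3.68, 4.11 and 3.64 FPKM in NFIA-Tg, so day 7 lay below day 0 without overlap. Plk1, Cdc20 and Kif20a were not called in NFIA-Tg (log2 changes 0.18, 0.05 and 0.04), and with TPM they stood at -0.05, -0.20 and -0.20, the latter 2 past the threshold. Plk1 passed it without NFIA-Tg day 0 replicate 3 or without NFIA-Tg day 7 replicate 3, among other settings (adjusted p between 0.00135 and 0.0459).

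The difference in this change between the groups labelled NFIA-Tg and WT was tested next, with Nfia at day 7 lower in the libraries labelled NFIA-Tg than in WT. Of the replication genes 8 rose more, or fell less, in NFIA-Tg cultures and 5 less, with a median difference of 0.21. Of the mitosis genes 3 rose more and 13 less, with a median of -0.18. In either direction that made 29 of the 39 genes, a share close to the 72.1% of all genes. Of all genes 29.5% were higher and 42.6% lower, with a median of -0.11. The split of the mitosis genes depended on scaling, at 5 higher and 7 lower with median-of-ratios scaling and 7 higher and 5 lower after quantile normalization, where the class median turned to 0.03 and that of all genes to 0.02. For replication genes the splits were 9 and 3, and 8 and 3, with medians of 0.30 and 0.26, so their direction held.

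The largest difference was in Rrm2. It rose from 33.3 to 35.2 FPKM at day 0 to 149 to 157 FPKM at day 7 in WT (log2 change 2.13 ± 0.04, adjusted p = 1.21e-13). In NFIA-Tg cultures, from 33.1 to 35.2 FPKM, it reached 41 to 44.1 FPKM (log2 change 0.32 ± 0.04, adjusted p = 9.42e-06, and 0.148 with TPM). The difference was -1.81 ± 0.06 (adjusted p = 9.46e-11). Rrm1 moved the same way by less, with 0.97 in WT, 0.34 in NFIA-Tg (adjusted p = 2.16e-06, 0.0565 with TPM and 0.243 after quantile normalization) and a difference of -0.63 ± 0.05 (adjusted p = 3.76e-07). Of the helicase genes Mcm2, Mcm3, Mcm5 and Mcm6 went the other way, while Mcm4 differed by -0.13 and Mcm7 was not called. Mcm2 rose with 0.66 in WT and 1.71 in NFIA-Tg, a difference of 1.05 ± 0.05 (adjusted p = 3.96e-09), and Mcm5, Mcm6 and Mcm3 differed by 0.73, 0.67 and 0.56. For Mcm2 the groups at day 7 met at 70 to 77 FPKM after standing apart at day 0.

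Foxm1 was the mitosis gene with the largest difference. It rose with 0.63 ± 0.05 in WT (adjusted p = 1.52e-07) and fell with -0.36 ± 0.05 in NFIA-Tg (adjusted p = 3.05e-05), a difference of -0.99 ± 0.07 (adjusted p = 1.24e-07). Its FPKM went from 14.9 to 15.8 up to 23.9 to 24.4 in WT, and from 5.66 to 5.96 down to 3.87 to 4.61 in NFIA-Tg, so that in both genotypes the 2 days did not overlap. Plk1 and Cdc20 differed by -0.57 and -0.52. Ccnb2 differed in the opposite direction, by 0.36 ± 0.07 (adjusted p = 0.000684), with a rise of 0.50 in WT and 0.86 in NFIA-Tg.

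**Figure D5:**
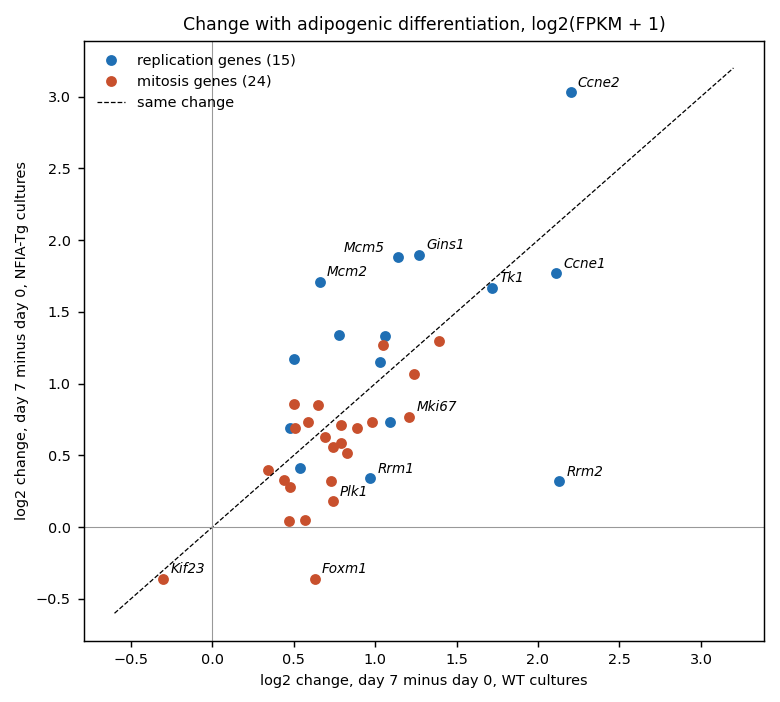
Log2 change from day 0 to day 7 on the log2(FPKM + 1) scale in WT (horizontal) and NFIA-Tg cultures (vertical) for 15 replication (blue) and 24 mitosis genes (red), with the line of equal change dashed. Rrm2 (2.13 and 0.32) lies furthest below the line and Mcm2 (0.66 and 1.71) furthest above it, and Foxm1 rose in WT and fell in NFIA-Tg.

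The lists around the classes changed with differentiation too. In WT, 33 of 34 other replication genes and 35 of 38 other mitosis genes rose (medians 0.91 and 0.65), and in NFIA-Tg 34 of 34 and 32 of 38 (medians 1.00 and 0.52), or 24 risen and 6 fallen with TPM for the latter. Cdc45, a helicase activator, rose with 1.76 and 2.69. Ckap2 fell in both, with -0.33 and -1.25. Of the 20 brakes 10 rose and 6 fell in WT, where 46.2% of all genes rose and 35.4% fell. In NFIA-Tg 11 brakes rose and 9 fell, where 45.7% of all genes rose and 41.5% fell. The MuvB gene Lin9 rose with 1.5 and 2.36, whereas Cdkn2b fell with -1.23 and -2.25 and Gas1 with -1.82 and -5.27. Ccnd1 went from 15 to 18.9 FPKM down to 7.67 to 9.51 FPKM in WT (log2 change -0.89 ± 0.12, adjusted p = 1.79e-05) and from 40.6 to 41.3 FPKM down to 1.76 to 2.91 FPKM in NFIA-Tg (log2 change -3.74 ± 0.12, adjusted p = 6.64e-12).

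In iWAT the 39 genes were low and their differences between genotypes smaller against the spread. Of the 24 mitosis genes 6 fell in NFIA-Tg (Cdk1, Ccna2, Cdca8, Cdc20, Ube2c and Tpx2), none rose, and 12 did not pass the test. Of the 15 replication genes 2 fell (Tk1 and Ccne1), none rose, and 12 did not pass. Another 6 mitosis genes and 1 replication gene were under the filter of 1 FPKM in 3 libraries. Of the 12396 genes tested in iWAT 5.44% fell and 5.96% rose. The median log2 change was -0.57 for the 18 mitosis genes tested (range -1.01 to -0.20), -0.35 for the 14 replication genes tested (range -1.11 to 0.67) and 0.05 for all genes. At an unadjusted limma p under 0.05 stood 13 of the 18 and 9 of the 14, but the share of all genes at that p is not given here. These counts are therefore only a description. Tpx2, Mki67 and Nusap1 passed the filter through the WT libraries alone, with no NFIA-Tg library at 1 FPKM, so they had to be lower in NFIA-Tg and the count and median of the 18 are a description, not support. Without these 3 genes 5 of 15 mitosis genes fell, with a median of -0.58.

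Ube2c, the enzyme that tags mitotic cyclins for destruction, was the most abundant mitosis gene in iWAT, at 6.6, 5.92 and 4.41 FPKM in WT, against 2.25, 2.58 and 1.98 FPKM in NFIA-Tg (log2 change -1.01 ± 0.16, adjusted p = 0.00751). Cdk1 was 2.41, 3.81 and 3.29 FPKM in WT, against 1.07, 1.24 and 0.958 FPKM in NFIA-Tg (log2 change -0.99 ± 0.17, adjusted p = 0.00959). Tk1 was 3.83, 3.65 and 3.56 FPKM in WT, against 1.82, 1.63 and 1.45 FPKM in NFIA-Tg (log2 change -0.83 ± 0.13, adjusted p = 0.00688). In these 3 genes every NFIA-Tg library lay below every WT library, and their calls held whichever of the 6 libraries was left out. Ccne1 was 3.14, 3.55 and 2.11 FPKM in WT, against 0.381, 1.23 and 0.905 FPKM in NFIA-Tg (log2 change -1.11 ± 0.22, adjusted p = 0.0188). Its adjusted p was 0.0502 without WT iWAT replicate 1 and 0.0584 without WT iWAT replicate 2. Those of Cdca8 (-0.83, adjusted p = 0.0156) and Tpx2 (-0.70, adjusted p = 0.0214) were 0.0505 and 0.0584 without NFIA-Tg iWAT replicate 2, and that of Tpx2 was 0.0649 without NFIA-Tg iWAT replicate 3. Ccna2 (adjusted p = 0.04) and Cdc20 (adjusted p = 0.046) lost their calls whichever of the 6 libraries was left out, at up to 0.115 and 0.112. Without any 1 of the WT libraries Tpx2 no longer passed the filter of 1 FPKM in 3 libraries and was not tested. The count of mitosis genes called was 3 without WT iWAT replicate 2, WT iWAT replicate 3 or NFIA-Tg iWAT replicate 3, and 2 without NFIA-Tg iWAT replicate 2. That of replication genes was 1 without WT iWAT replicate 1 or without WT iWAT replicate 2.

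The groups did not overlap and NFIA-Tg was lower in 17 of the 24 mitosis genes and 7 of the 15 replication genes. Among all genes tested this held for 13.9%, but the 17 include Ccnb1, Kif11 and Cenpe, which were under the filter and not tested. Tpx2, Mki67 and Nusap1 are also among the 17 and had to be lower, since they passed the filter through WT alone. The count of mitosis genes is thus a description, not support. NFIA-Tg was higher without overlap in 2 replication genes, Mcm7 and Gins1, and in 20.5% of all genes. Gins1 was 1.31, 1.33 and 1.15 FPKM in WT, against 1.61, 3.24 and 3.2 FPKM in NFIA-Tg (log2 change 0.67 ± 0.21, adjusted p = 0.0739). Mcm7 was 10.6, 10.8 and 10.2 FPKM in WT, against 12.9, 12.3 and 13.1 FPKM in NFIA-Tg (log2 change 0.25 ± 0.10, adjusted p = 0.133). Neither passed the test, but Gins1 was called higher without NFIA-Tg iWAT replicate 1 (log2 change 0.90, adjusted p = 0.016). With all 18 libraries in 1 fit both genes were called higher (adjusted p = 0.00147 and 0.00177). That fit takes its spread mostly from the cultures, whose replicates lay closer together (correlations of 0.9974 to 0.9985) than those of iWAT (0.9881 to 0.9927). Its p-values therefore do not rest on the spread of the tissue alone. Pcna, at 34.3, 37.2 and 31.3 FPKM in WT, against 32.3, 35.8 and 30.3 FPKM in NFIA-Tg (log2 change -0.06 ± 0.11, adjusted p = 0.743), overlapped between genotypes, with a 95% interval of -0.31 to 0.19. Aurkb was listed at 0 in NFIA-Tg iWAT replicate 1 and Bub1 in WT iWAT replicates 1 and 2.

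Of the wider lists in iWAT, 5 of the 16 other mitosis genes tested fell and none rose (median -0.49), led by Spc25 of the kinetochore (-1.31 ± 0.19, adjusted p = 0.00551) and Racgap1 of cytokinesis (-0.89 ± 0.13, adjusted p = 0.00574). Of the 25 other replication genes tested limma, the only tool run on tissue, called 0, with a median of -0.14. At an unadjusted p under 0.05 stood 3 of them, again without the share of all genes. Among the brakes Cdkn2c rose (0.66) and Btg2 fell (-0.54), both not past the threshold with TPM, and among G1 genes Ccnd2 (-0.57) and Ccnd3 (-0.72) fell. Of the marker sums of other cells in iWAT, that of the 7 endothelial markers, none at 0, was lower in every NFIA-Tg library, at 442 to 532 FPKM in WT and 302 to 365 FPKM in NFIA-Tg, with 5 of the 7 lower without overlap. The sums of macrophage and lymphocyte markers overlapped between genotypes. The 7 macrophage markers, none at 0, summed to 607 to 766 FPKM and 526 to 671 FPKM, with Lyz2 lower and Mrc1 higher in every NFIA-Tg library. The 8 lymphocyte markers summed to 5.89 to 20.1 FPKM and 2.65 to 11 FPKM, with Cd3e and Cd8a listed at 0 in WT libraries and Cd3d, Cd3g, Cd79b, Cd8a and Ms4a1 in NFIA-Tg libraries. The sums of the 8 adipocyte markers overlapped, at 29020 to 30750 FPKM and 26420 to 38230 FPKM, but were mostly Fabp4 (19270 to 21160 FPKM and 18540 to 28580 FPKM). Of the single adipocyte markers 2 were lower in every NFIA-Tg library, Plin1 was higher in every one and 5 overlapped. The 2 were Adipoq (2860 to 2929 FPKM against 2022 to 2274 FPKM) and Lipe. The sums of progenitor, smooth muscle and erythroid markers also overlapped. Erythroid markers summed to 14320 FPKM in WT replicate 1 and to 2331 to 5476 FPKM in the other iWAT libraries. The part of these markers in the result was not tested.

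Some values can include reads of other genes. In the GENCODE annotation, exons of 13 of the 39 genes overlap exons of another gene, for example Tk1 with Afmid, Mcm7 with Cops6 and Ube2c with Tnnc2, and the sources used here do not give the strand setting of the counting. Ccnb1, Ccnb2, Pcna and Tyms have annotated pseudogenes, with which they may share reads.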

How the data were processed

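Per the labels' protocols, Trizol and RNeasy were used for the RNA, and libraries were stranded and from polyadenylated RNA. STAR 2.7.8a, StringTie 2.1.1 and mm9 stand in the submitters' processing notes, without roles. The sources used here do not give the annotation, the strand setting or the treatment of multiply mapped reads. The deposited files hold 1 FPKM value and a length per gene, per the file headers. Entries sharing a symbol in iWAT (410 entries, 180 symbols) were summed. Multiplying FPKM by length gave, in the cultures, whole reads for 100% of values within a tolerance of 0.01. Reads were not recovered this way from the tissue values.

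In R 4.3.3, limma 3.58.1 tested log2(FPKM + 1), using eBayes with its mean-variance trend, for genes with at least 1 FPKM in at least 3 fitted samples. Two-sided p-values were adjusted by the Benjamini-Hochberg method over all genes tested. Genotype in iWAT was fitted on 6 libraries (4 residual degrees of freedom), and all other contrasts on the 12 culture libraries (8). Tissue and cultures were tested separately. Alternatives were other pseudocounts, filters, scalings and eBayes settings, a replicate term, voom on recovered reads, all 18 libraries in 1 fit and each library left out. The fits were tested on simulated data. All 39 members could be named. From wider lists, the 2 called genes with the smallest adjusted p, any called against the rest and any brake or G1 gene could be. Some genes of the wider lists are not reported here. Members and lists were chosen with earlier results of these data known.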

Additional observations from a re-analysis of the deposited data

Results flagged for a closer look

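The change from day 0 to day 7 differed between the genotypes, by the test of that difference (NFIA-Tg minus WT as labelled, although Nfia at day 7 went against the labels; limma, adjusted p under 0.05), in 29 of the 39 genes, a share like the 72.1% of all genes. Among replication genes the log2 difference was 1.05 for Mcm2, 0.82 for Ccne2, 0.73 for Mcm5, 0.67 for Mcm6, 0.63 for Gins1, 0.56 for Mcm3, 0.27 for Pcna and 0.21 for E2f1. It was -0.13 for Mcm4, -0.34 for Ccne1, -0.36 for Tyms, -0.63 for Rrm1 and -1.81 for Rrm2. Among mitosis genes it was 0.36 for Ccnb2, 0.21 for Prc1 and 0.19 for Tpx2. It was -0.18 for Kif11 and Nusap1, -0.19 for Ccna2 and Bub1b, -0.21 for Aurkb, -0.25 for Cdk1, -0.31 for Bub1, -0.41 for Cdca8, -0.42 for Kif20a, -0.44 for Mki67, -0.52 for Cdc20, -0.57 for Plk1 and -0.99 for Foxm1. Quantile normalization turned the sign of Kif11 (0.03), Nusap1 (0.02) and Bub1b (0.02), and quantile normalization ended the calls of Bub1 and Mki67 and, as did median-of-ratios scaling, those of Mcm4, Ccne1, Ccna2, Aurkb and Cdk1. TPM ended those of E2f1, Prc1 and Tpx2. Leaving out single libraries ended the calls of Mcm4 (7 of the 12), Bub1b (7), Nusap1 (7), E2f1 (6), Kif11 (1, NFIA-Tg day 0 replicate 3) and Prc1 (1, WT day 7 replicate 3). The highest adjusted p over all alternatives was 0.541 for Mcm4, 0.257 for Bub1b in its direction, 0.383 for Nusap1 in its direction and 0.0738 for E2f1.

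In Mcm7 and Gins1 all NFIA-Tg libraries lay above WT in iWAT (log2 changes 0.25 and 0.67) and below it at day 0 and at day 7, a difference between settings that was not tested. Rrm1 was lower in every NFIA-Tg library in iWAT (-0.26) and at day 7 (-0.49) and higher in every one at day 0 (0.14), a difference also not tested. The iWAT values of these 3 genes did not pass the test.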

How the results depend on the processing

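In the cultures the count of called genes stayed within 1.5 times its value in both classes, for all 5 comparisons, under every alternative run. In iWAT it did not: with a filter at 5 FPKM 0 genes of either class were called, since few remained to be tested, and with no filter 1 replication gene. With all 18 libraries in 1 fit 10 replication and 18 mitosis genes were called, but the spread in that fit comes mostly from the cultures. Among the 10, Mcm7 and Gins1 were called higher. The filter of that fit also counts culture libraries, so genes under the filter in iWAT could be tested in it. The share of all genes called in it is not given here, so these counts are only a description. Leaving out 1 iWAT library gave 1 to 3 replication and 2 to 5 mitosis genes. The replicate numbers did not pair the samples (correlations of same-numbered libraries of -0.108 to 0.156, not all best with their own number). With a replicate block in the fit, iWAT still gave 2 and 6 calls, with Ccna2 and Cdc20 replaced by Aurkb and Birc5, and the genotype by differentiation contrast 12 in place of 13 replication genes.

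The difference between the replication and mitosis medians (log2) kept its sign in every comparison and setting that gave one. With a filter at 5 FPKM iWAT gave none. The difference was also taken without 7 genes that act in both phases or in entry (Ccna2, Ccne1, Ccne2, E2f1, Foxm1, Mki67 and Top2a). In iWAT it was 0.22, and 0.55 and 0.36 with pseudocounts of 0.1 and 0.5, 0.4 with TPM, 0.38 without those 7 genes, and 0.12 to 0.35 with 1 library left out. At day 0 it was 0.46, and 0.62, 0.54, 0.57, 0.63 and 0.42 with pseudocounts of 0.1 and 0.5, TPM, voom and without those 7 genes. At day 7 it was 1.01, and 1.05, 0.83, 1.08 and 0.86 with a pseudocount of 0.1, quantile normalization, voom and without those genes. For differentiation in WT it was 0.35, 0.28 after quantile normalization and 0.33 to 0.37 with 1 library left out. In NFIA-Tg it was 0.72, 0.67 with a pseudocount of 0.1, 0.36 after quantile normalization, 0.66 with voom and 0.67 to 0.74 with 1 library left out. For the genotype difference in differentiation it was 0.39, 0.23 after quantile normalization, 0.34 without those genes and 0.33 to 0.43 with 1 library left out. A smaller pseudocount gives low genes larger changes by construction. The cause of the other shifts was not tested.

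Signs turned only in small values, but some of the turned values passed the threshold of the limma test. In iWAT with 1 library left out Mcm2 ran from -0.33 to 0.04 (without WT iWAT replicate 2) and Aurka from -0.46 to 0.09 (without NFIA-Tg iWAT replicate 1). Rrm2 at day 0 was -0.01 without WT day 0 replicate 3 and -0.01 without NFIA-Tg day 0 replicate 3. Mcm2 at day 7 was 0.06 with median-of-ratios scaling. For differentiation in NFIA-Tg with TPM, Plk1 was -0.05, Cdc20 -0.2 (adjusted p = 0.00655) and Kif20a -0.2 (adjusted p = 0.000874). The difference in differentiation turned with median-of-ratios scaling in Tk1 (0.05), Aurka (0.01), Birc5 (0.01), Kif23 (0.03) and Top2a (0.03). With voom Tk1 and Aurka were 0 and Birc5 0.01. After quantile normalization Aurka was 0.06, Birc5 0.15, Bub1b 0.02, Kif11 0.03, Kif23 0.18 (adjusted p = 0.0428), Nusap1 0.02, Cenpe 0.1 and Top2a 0.07. With 1 library left out Tk1 ran from -0.09 to 0.02 (without NFIA-Tg day 7 replicate 3) and Cenpf from -0.01 to 0.16 (-0.01 and 0 without NFIA-Tg day 0 or day 7 replicate 2). Since the depth of iWAT libraries is unknown, precision there rests on the spread among them.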
